A study of Homo sapiens with 8 samples.

Results

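Nucleotide excision repair and the general transcription factor TFIIH share subunits, and the genes of both were followed in HepG2 cells exposed to benzo[a]pyrene (BaP). The set was fixed by name and holds 30 genes. Of these, 29 matched a gene ID among the 49733 gene IDs of the deposited files, and GTF2H5 did not. All 29 passed the filter on low counts, among 14746 genes tested. HepG2 is a human hepatocellular carcinoma cell line. BaP, a polycyclic aromatic hydrocarbon, is a ligand of the aryl hydrocarbon receptor (AHR), and its metabolites form bulky adducts on DNA. The cells received 2 µM BaP or the vehicle alone (0.5% DMSO), for 12 h or 24 h, and each of the 4 groups (BaP 12 h, BaP 24 h, DMSO 12 h, DMSO 24 h) held 2 libraries of poly-A RNA from independent experiments. The 12 h and 24 h comparisons used different DMSO libraries. The question was whether transcripts of the repair system changed with BaP, and when.

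Nucleotide excision repair cuts a short, lesion-bearing stretch out of 1 DNA strand and fills the gap by copying the other strand. Damage is found in the whole genome by XPC with its partners RAD23B and CETN2, helped by the DDB1-DDB2 complex, which joins the ubiquitin ligase scaffolds CUL4A or CUL4B and RBX1. In transcribed strands, stalled RNA polymerase II recruits ERCC6 and ERCC8 instead. Both routes hand over to TFIIH, whose helicases ERCC3 and ERCC2 open the DNA, and then to XPA and the nucleases ERCC1-ERCC4 and ERCC5. Bulky BaP adducts are a textbook substrate of this pathway.

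Few of the genes were called as changed. At 12 h DDB2 and XPC were called higher with BaP, and at 24 h DDB2 and ERCC1 were. The calls of XPC and ERCC1 were lost under several other settings, given below. None of the 29 was called lower at either time. With 2 libraries per group, the absence of a call does not show an unchanged gene. Called here means a two-sided adjusted p under 0.05 in edgeR's quasi-likelihood test, with Benjamini-Hochberg adjustment over all genes tested. The 2 of 29 called at 12 h are 6.90% of the genes, where 8.25% of all genes tested were called, 3.41% higher and 4.84% lower. At 24 h the share was again 6.90%, where 5.30% of all genes were called, 3.11% higher and 2.20% lower. The number of members called was therefore close to the background at both times. The median log2 fold change of the 29 genes was 0.019 at 12 h and 0.033 at 24 h, beside 0.015 and 0.0059 over all genes tested. Their fold changes ran from -0.27 to 0.55 at 12 h and from -0.24 to 0.94 at 24 h on the log2 scale, while the SD over all genes was 0.57 and 0.61.

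**Figure D1:**
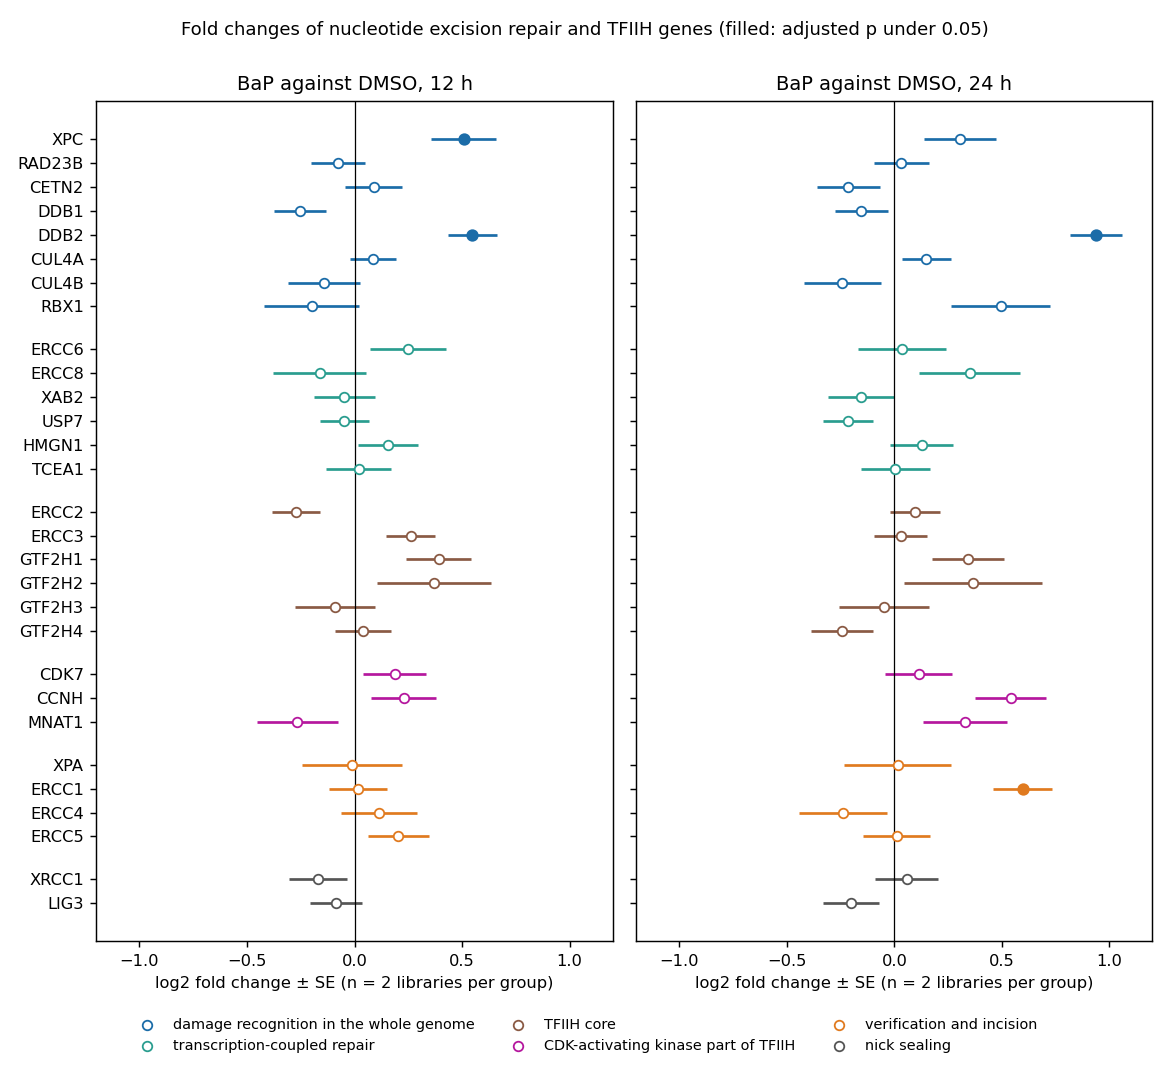
The log2 fold change (x axis) of each of the 29 genes (y axis, grouped by role and colour) with BaP against DMSO at 12 h (left) and 24 h (right), with bars of 1 SE and filled points for adjusted p under 0.05. DDB2 lies furthest to the right in both panels, at 0.55 and 0.94, and no gene lies below -0.27.

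The 95% interval of the fold change lay within a 2-fold change in either direction for 29 of 29 genes at 12 h. At 24 h it did so for 27, the others being DDB2 and GTF2H2. At 12 h both BaP libraries lay above both DMSO libraries for 10 genes (34.5%), beside 25.4% of all genes, and below them for 3 (10.3%), beside 23.9%. At 24 h the counts were 8 above (27.6%, beside 23.2%) and 7 below (24.1%, beside 24.0%). XPC, DDB2, CUL4A, GTF2H1 and CCNH lay above at both times, and DDB1 lay below at both. The share of all genes on the same side at both times was not computed, so these names have no background. ERCC2 lay below at 12 h and above at 24 h. The other genes overlapped at 1 time or both.

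The libraries held 2592272 to 16533490 counts, and replicate 1 of BaP 24 h was the shallowest. The lowest count of a member was 16, for XPA in that library. The 29 genes together took 0.138% to 0.159% of each library's counts. CYP1A1, the AHR target that metabolises BaP, rose by 7.66 at 12 h and 7.74 at 24 h on the log2 scale, and the cell cycle inhibitor CDKN1A (2.02 and 1.87) and the ubiquitin ligase MDM2 (1.21 and 1.02) rose too. All 10 hepatocyte markers listed were detected, but their summed level was lower with BaP. At 12 h it was at 20320 to 21780 CPM (counts scaled to 1000000 per library) beside 25980 to 28430 with DMSO. At 24 h it was at 22490 to 23030 CPM beside 30260 to 33120. Marker sums use the library total alone. All other CPM use the total of the genes tested times a scaling factor per library (TMM). Summed markers of other cell types were low and rested on few genes. A mean under 1 CPM was seen for 2 of 4 monocyte or macrophage and 3 of 5 fibroblast or stellate cell markers. The same held for 2 of the 3 endothelial cell markers found and 2 of 3 T cell markers. The sums differed between BaP and DMSO, except that at 12 h the ranges of endothelial cell and T cell markers overlapped. Monocyte or macrophage markers (4 of 4 found) were at 47.8 to 51.4 CPM with BaP and 39.2 to 43.0 with DMSO at 12 h, and at 55.8 to 60.6 beside 37.0 to 39.3 at 24 h. Fibroblast or stellate cell markers (5 of 5 found, DCN at 0) were at 20.9 to 30.1 CPM with BaP and 36.0 to 60.8 with DMSO at 12 h, and at 23.3 to 32.4 beside 37.7 to 56.8 at 24 h. Endothelial cell markers (3 of 4 found, KDR at 0) were at 0.484 to 0.723 CPM with BaP and 0.712 to 1.35 with DMSO at 12 h, and at 0.386 to 0.968 beside 2.20 to 3.04 at 24 h. T cell markers (3 of 3 found, CD2 and CD3E at 0) were at 0.725 to 1.13 CPM with BaP and 0.712 to 1.20 with DMSO at 12 h, and at 5.02 to 6.71 beside 1.43 to 1.86 at 24 h. All libraries came from the HepG2 line, so these sums are levels of the listed genes and no measure of other cell types. In bulk RNA, a change in the number of cells with these transcripts and in RNA per cell cannot be told apart. The part of these shifts in the changes below was not tested.

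Among the 8 genes of damage recognition in the whole genome, DDB2 showed the largest change. DDB2 encodes the subunit that binds damaged DNA within chromatin. Its level at 12 h was 67.2 and 63.1 CPM with BaP and 47.1 and 42.0 with DMSO, a log2 fold change of 0.55 (SE 0.11, adjusted p = 0.0058). At 24 h it was 85.9 and 87.8 CPM with BaP and 44.4 and 46.7 with DMSO, a log2 fold change of 0.94 (SE 0.12, adjusted p = 0.00027). All 4 BaP libraries lay above all 4 DMSO libraries, and the BaP libraries of 24 h above those of 12 h. The share of all genes so ordered was not computed. The difference between the 24 h and the 12 h effect was 0.39 (SE 0.17) and was not called (adjusted p = 0.45). The call at 24 h held in all 11 alternatives, with log2 fold changes from 0.90 to 1.00. The call at 12 h was lost without replicate 1 of BaP 12 h (adjusted p = 0.11), without replicate 2 of BaP 12 h (0.051), without replicate 2 of DMSO 12 h (0.072) and with all libraries thinned to 2592234 counts (0.12).

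RefSeq promoter windows (GRCh38.p14), each from 250 bases before to 50 bases after an annotated start, matched 29 of the 30 listed genes, all but TCEA1. A match in them is a description of the letters and says nothing on binding in these cells. The AHR core motif GCGTG, searched on both strands, was found for 18 of the 29 genes with a window (62.1%) beside 40.6% of all genes. A gene counted if any of its windows matched, and the 29 members had 44 windows, beside 35116 for 27305 genes. By window, 23 of the 44 matched, beside 12832 of the 35116. All genes here include those not tested for expression, so the shares are not a like-for-like background. DDB2 had no match. XPC, called at 12 h, held 2 and ERCC1, called at 24 h, held 3. Those that lie before a start are shown on the gene's strand, with the motif in capitals, at chr3:14178649-14178677 and chr3:14178674-14178702 for XPC and chr19:45423522-45423550 and chr19:45423683-45423711 for ERCC1, all on the minus strand:
XPC at 64 to 60 bases before the start: tccaacgaagggGCGTGgccaagcgcacc
XPC at 89 to 85 bases before the start: cttcctttagggGCGTGactaggcctcca
ERCC1 at 10 to 6 bases before the start: gaggtcaaagggGCGTGgcgttacagagc
ERCC1 at 171 to 167 bases before the start: ggacaaggccagGCGTGgggagggcgtcc
The other 16 members with this motif, among them DDB1, RAD23B and XPA, were not called at either time.

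XPC, the sensor of distorted DNA, was at 39.6 and 37.5 CPM with BaP and 29.4 and 24.7 with DMSO at 12 h. The groups did not overlap, and the log2 fold change was 0.51 (SE 0.15, adjusted p = 0.048). At 24 h XPC was at 37.9 and 30.4 CPM with BaP and 29.6 and 23.1 with DMSO, a log2 fold change of 0.31 (SE 0.17) that was not called (adjusted p = 0.32). The groups again did not overlap, but replicate 2 with BaP lay just above replicate 1 with DMSO. The 12 h call sat at the threshold. It was lost when any 1 of the 4 libraries was left out: adjusted p = 0.32 and 0.20 without replicate 1 and 2 of BaP 12 h, and 0.056 and 0.29 without replicate 1 and 2 of DMSO 12 h. It was also lost with DESeq2's test (0.14), with thinned libraries (0.29) and with transcripts regrouped by a later annotation (0.054). XPC shares 318 exon bases with LSM3 on the opposite strand, and whether the libraries kept the strand was not given, so reads of these bases cannot be told apart. LSM3 was not called (log2 fold change 0.071 at 12 h and 0.34 at 24 h). Other members share exon bases too, among them DDB1 (521 with TKFC), ERCC2 (535 with KLC3) and CCNH (771 with RASA1), on opposite strands. ERCC5 shares 1572 with BIVM on the same strand. None of these neighbours was called. TKFC was at -0.25 at 12 h and -0.040 at 24 h, and RASA1 at -0.17 and -0.40.

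The partners of DDB2 and XPC were not called. DDB1, the adaptor that binds DDB2, was at 296 and 326 CPM with BaP and 375 and 366 with DMSO at 12 h, a log2 fold change of -0.25 (SE 0.12, adjusted p = 0.26). At 24 h it was at 309.5 and 317 CPM beside 351 and 347 (-0.15, adjusted p = 0.53). Both BaP libraries thus lay below both DMSO libraries at each time. Per length, in TPM (transcripts scaled to 1000000 per library), the ratio of DDB2 to DDB1 was 0.480 and 0.427 with BaP and 0.277 and 0.253 with DMSO at 12 h. At 24 h it was 0.601 and 0.556 with BaP and 0.268 and 0.294 with DMSO. In no library did DDB2 reach the per-length level of DDB1. The ratio of XPC to RAD23B, which stabilises XPC, was 0.137 and 0.117 with BaP and 0.0875 and 0.0749 with DMSO at 12 h, and 0.117 and 0.110 beside 0.0890 and 0.0765 at 24 h. Ratios were also taken for XPC to CETN2, CCNH to CDK7 and CUL4A to CUL4B. At 12 h BaP and DMSO overlapped for CCNH to CDK7 (0.940 and 0.371 beside 0.915 and 0.673). They also overlapped then for CUL4A to CUL4B (5.45 and 5.12 beside 6.25 and 5.26). At 24 h BaP lay above DMSO for each of these pairs. All ratios of partners are descriptions and were not tested.

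RAD23B itself was at -0.076 and 0.031 on the log2 scale at 12 h and 24 h, and CETN2, the centrin of the XPC complex, at 0.090 and -0.21. The scaffold CUL4A was at 0.085 and 0.15, and its paralogue CUL4B at -0.14 and -0.24. RBX1, the RING subunit of the ligase, was at 20.2 and 17.4 CPM with BaP and 24.7 and 18.3 with DMSO at 12 h (-0.20, adjusted p = 0.71). At 24 h it was at 20.3 and 36.1 CPM with BaP and 22.8 and 20.1 with DMSO (0.49, SE 0.23, adjusted p = 0.25). In each library, the retained-intron transcript RBX1-203 held 51.6% to 65.7% of the counts of its transcripts tested for usage. One library, replicate 2 of BaP 24 h, stood above the other seven. Without that library the fold change was -0.10 (adjusted p = 0.93), and without replicate 1 of BaP 24 h it was 0.74 (adjusted p = 0.0080).

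**Figure D2:**
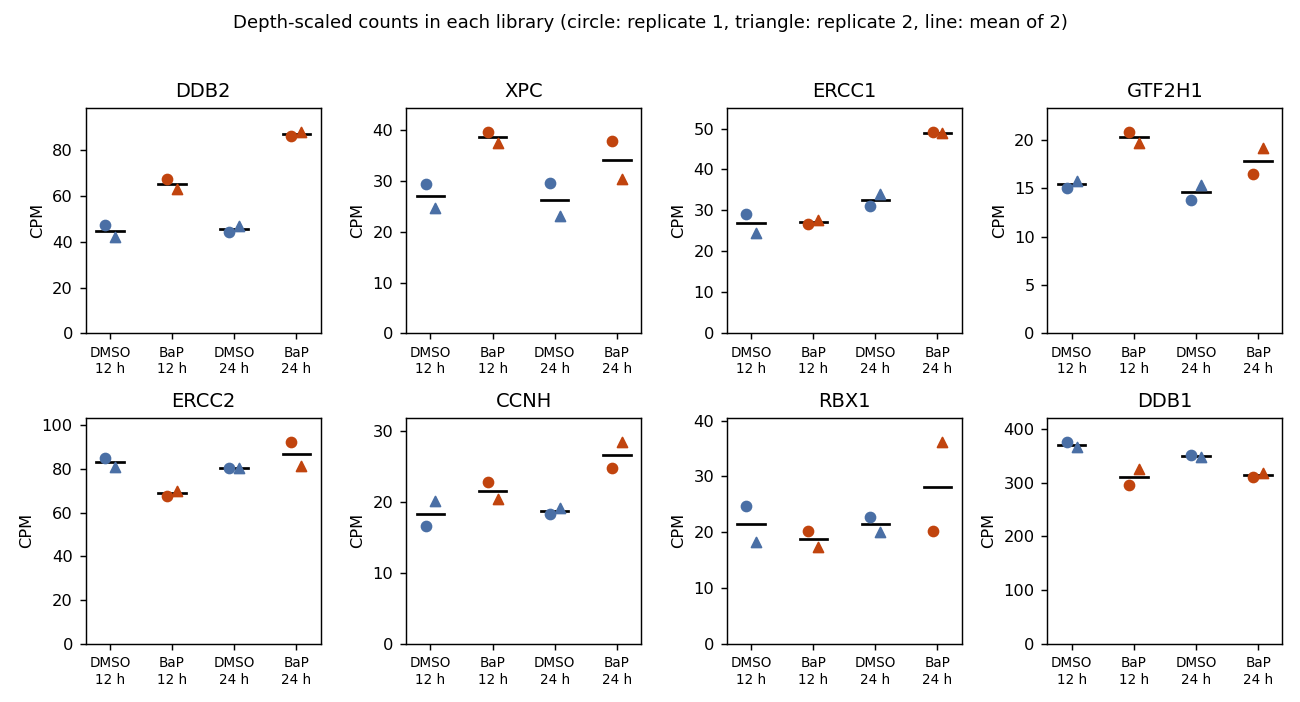
Depth-scaled counts (CPM, y axis from 0) of 8 genes in each of the 8 libraries, by group on the x axis, with DMSO in blue, BaP in red, replicate 1 as a circle, replicate 2 as a triangle and the mean of 2 as a line. DDB2 with BaP lies between 63.1 and 87.8 and with DMSO between 42.0 and 47.1, while RBX1 at 24 h, not called, was at 20.3 and 36.1 with BaP.

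None of the 6 genes of transcription-coupled repair was called, and their median log2 fold change was -0.014 at 12 h and 0.019 at 24 h. The largest value at 12 h was that of ERCC6, the ATPase that binds stalled polymerase, at 0.25 (SE 0.18, adjusted p = 0.50), and at 24 h that of ERCC8, the substrate receptor of the CSA ubiquitin ligase, at 0.35 (SE 0.24, adjusted p = 0.44). ERCC8 was also the lowest at 12 h, at -0.16. USP7, a deubiquitinase, was the lowest at 24 h, at -0.22 (SE 0.12, adjusted p = 0.33), with 138 and 159 CPM beside 169.5 and 179 with DMSO. XAB2 was at -0.047 and -0.15, the chromatin protein HMGN1 at 0.16 and 0.13, and the elongation factor TCEA1 at 0.019 and 0.0048.

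The TFIIH core was measured through 6 of its 7 listed genes, and none was called. The median log2 fold change was 0.15 at 12 h and 0.062 at 24 h. GTF2H1 was nearest to the threshold at 12 h, with 20.8 and 19.7 CPM with BaP and 15.1 and 15.8 with DMSO (0.39, SE 0.15, adjusted p = 0.14). At 24 h GTF2H1 was at 16.5 and 19.1 CPM beside 13.8 and 15.4 (0.34, SE 0.17, adjusted p = 0.27). All 4 BaP libraries lay above all 4 DMSO libraries in the total of this gene. The share of all genes so ordered was not computed. In replicate 2 of BaP 24 h, a retained-intron transcript held 39.0% of the counts of its transcripts tested for usage. In the DMSO 24 h libraries it held 1.99% and 0%. The total at 24 h is therefore not that of the coding transcript alone.

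Neither helicase gene was called at either time. ERCC2, also known as XPD, was at 67.5 and 70.2 CPM with BaP and 85.3 and 81.2 with DMSO at 12 h, which is lower in both libraries (-0.27, SE 0.11, adjusted p = 0.17). At 24 h it was at 92.3 and 81.6 CPM beside 80.4 and 80.6 (0.096, SE 0.12, adjusted p = 0.70). The difference between the 24 h and 12 h effects was 0.37 (SE 0.16, adjusted p = 0.47). ERCC3, also known as XPB, was at 67.7 and 74.5 CPM with BaP and 60.95 and 57.9 with DMSO at 12 h (0.26, SE 0.12, adjusted p = 0.21), and at 0.028 at 24 h. The difference between the helicases was not tested.

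GTF2H2 had the widest interval of the 29 genes, with log2 fold changes of 0.37 (SE 0.27) at 12 h and 0.36 (SE 0.32) at 24 h. It has the near-identical copies GTF2H2B and GTF2H2C, between which reads may be divided with error. The 3 copies summed to 39.1 and 39.6 CPM with BaP and 30.3 and 35.4 with DMSO at 12 h, and to 29.6 and 36.7 beside 36.8 and 29.6 at 24 h. The log2 fold change of this sum was 0.26 (SE 0.14, adjusted p = 0.35) and 0.025 (SE 0.16, adjusted p = 0.96). GTF2H3 was at -0.090 and -0.050, and GTF2H4 at 0.039 and -0.24. GTF2H4 shares 1858 exon bases with VARS2 on the same strand, and VARS2 was not called (0.16 and -0.11).

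The CDK-activating kinase is the detachable part of TFIIH that phosphorylates RNA polymerase II and cell cycle kinases. None of its 3 genes was called, and their median log2 fold change was 0.19 at 12 h and 0.33 at 24 h. CCNH, the cyclin of the kinase, was nearest to the threshold at 24 h, with 24.8 and 28.4 CPM with BaP and 18.3 and 19.1 with DMSO (0.54, SE 0.16, adjusted p = 0.070). A retained-intron transcript, CCNH-202, held 5.77% and 47.9% of the counts of its transcripts tested for usage with BaP at 24 h. With DMSO at 24 h it held 38.2% and 12.2%, so the total is not that of the coding transcript alone. At 12 h CCNH was at 22.8 and 20.3 CPM beside 16.6 and 20.1 (0.23, SE 0.15, adjusted p = 0.47), so that the groups nearly touched. CCNH passed at 24 h without replicate 1 of BaP 24 h (0.60, adjusted p = 0.022). CDK7, the kinase, was at 0.19 and 0.11. MNAT1, the assembly factor, was at -0.27 at 12 h and 0.33 at 24 h, a difference of 0.59 (SE 0.27, adjusted p = 0.50).

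Leaving out the shallow replicate 1 of BaP 24 h gave 4 members called at 24 h (CCNH, DDB2, ERCC1 and RBX1), all higher. The same step raised the number called among all genes tested from 782 (5.30%) to 1956 (12.8%). Without replicate 2 of BaP 24 h, replicate 1 of DMSO 24 h or replicate 2 of DMSO 24 h, DDB2 alone was called, beside 276, 169 and 236 of all genes tested.

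Of the 4 genes of damage verification and incision, ERCC1 rose at 24 h. ERCC1 is the partner that the nuclease ERCC4 (XPF) needs to cut on the 5′ side of a lesion. Its level at 24 h was 49.1 and 48.8 CPM with BaP and 31.2 and 33.9 with DMSO, a log2 fold change of 0.60 (SE 0.14, adjusted p = 0.020). At 12 h the groups overlapped, at 26.6 and 27.6 CPM with BaP and 29.2 and 24.5 with DMSO (0.016, SE 0.13, adjusted p = 0.97). The difference between the times was 0.58 (SE 0.19) and was not called (adjusted p = 0.28). ERCC4 was at 14.6 and 10.2 CPM with BaP and 13.5 and 13.7 with DMSO at 24 h (-0.24, SE 0.20, adjusted p = 0.56). The ratio of ERCC1 to ERCC4 in TPM was 16.1 and 17.8 with BaP and 10.8 and 8.41 with DMSO at 24 h, and 8.14 and 4.59 beside 8.65 and 7.59 at 12 h. This ratio takes ERCC1 with the transcripts assigned to it in the deposited files.

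The value of ERCC1 depends on how transcripts are assigned to genes. ERCC1 shares 1593 exon bases with POLR1G, a subunit of RNA polymerase I encoded on the opposite strand. The deposited files count the transcript ERCC1-204 under POLR1G, while GENCODE 29 places it in ERCC1, and it took 1106 counts in total. This transcript was at 17.3 and 7.56 CPM with BaP and 12.5 and 12.3 with DMSO at 24 h, so its groups overlapped. With it added, ERCC1 was at 66.7 and 56.0 CPM with BaP and 43.5 and 45.8 with DMSO at 24 h. The groups still did not overlap, but the log2 fold change was 0.43 (SE 0.16) and was no longer called (adjusted p = 0.13). At 12 h the regrouped value was -0.12 (SE 0.15, adjusted p = 0.77). The call at 24 h was also lost without replicate 2 of BaP 24 h (adjusted p = 0.11), without replicate 1 of DMSO 24 h (0.25) and without replicate 2 of DMSO 24 h (0.10). With DESeq2's test it fell just beyond the threshold, at a log2 fold change of 0.59.

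Within ERCC1, the transcript ERCC1-202 was at 33.0 and 23.5 CPM with BaP and 13.6 and 20.1 with DMSO at 24 h. ERCC1-203 was at 8.53 and 8.09 CPM beside 7.66 and 4.15, and ERCC1-201 at 7.59 and 16.5 beside 9.93 and 9.73. Of these 3, the groups overlapped for ERCC1-201 and not for the others. The POLR1G transcript was listed at 0 in replicate 1 of BaP 24 h, where ERCC1-204 was at 17.3 CPM. POLR1G as deposited was not called (-0.23 at 12 h and -0.20 at 24 h).

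**Figure D3:**
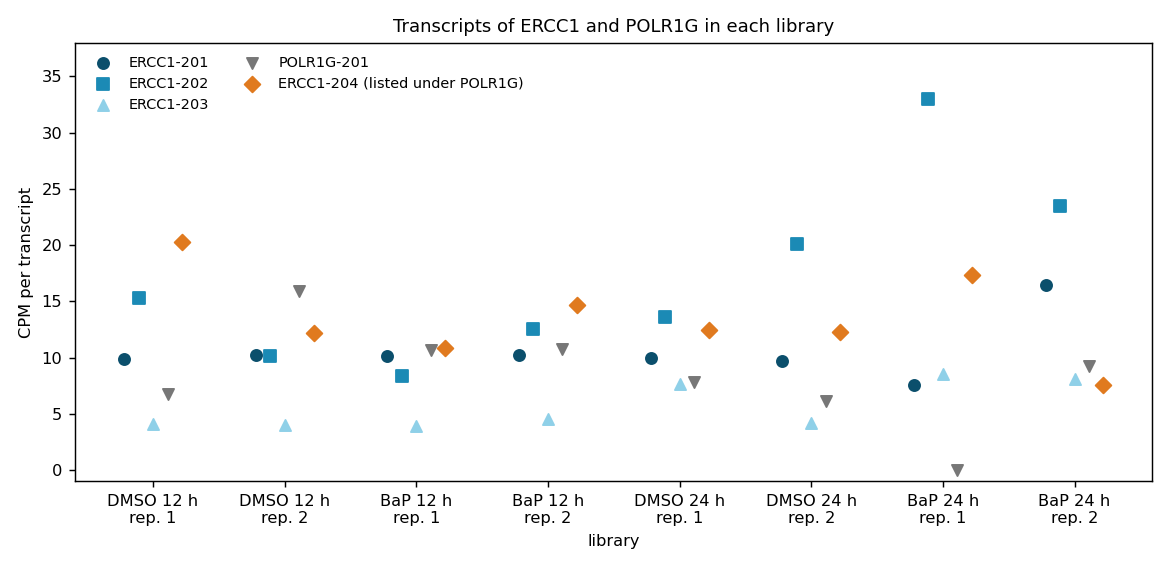
CPM (y axis) of the 3 main transcripts of ERCC1 (blue), of the transcript ERCC1-204 counted under POLR1G in the deposited files (orange diamonds) and of the POLR1G transcript (grey) in each of the 8 libraries (x axis). ERCC1-202 is highest in the BaP 24 h libraries, at 33.0 and 23.5, and the orange points there lie at 17.3 and 7.56.

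XPA, the scaffold that verifies the lesion, was at 5.46 and 4.46 CPM with BaP and 5.46 and 4.47 with DMSO at 12 h (log2 fold change -0.013) and was at 0.015 at 24 h. ERCC5, the nuclease that cuts on the 3′ side, was at 0.20 (SE 0.14, adjusted p = 0.49) and 0.0099. Of the ligation genes, XRCC1 was at -0.17 and 0.057 and LIG3 at -0.088 and -0.20, and neither was called. LIG3 shares 3754 exon bases with RFFL on the opposite strand, and RFFL rose at 12 h (0.50, adjusted p = 0.022) and was at -0.19 at 24 h.

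No member was called for the difference between the 24 h and 12 h effects, beside 0.543% of all genes tested. RBX1 passed that test without replicate 1 of BaP 24 h, where 2.27% of all genes were called. Nor was any member called for DMSO at 24 h against 12 h, beside 3.28% of all genes. At an unadjusted p under 0.05 in the same test, DDB2, RBX1, ERCC2, MNAT1 and ERCC1 passed for the first comparison, and CDK7 for the second. The share of all genes passing without adjustment was not computed, so these names have no background and are not read as changes. DESeq2's test called none in either comparison.

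Per length, the genes differed by far more than BaP changed any of them. Mean levels over the 8 libraries ran from 2.78 TPM for ERCC6 and 3.96 for ERCC4 to 102 for DDB1 and 109 for RAD23B. ERCC8 (4.67), XPA (4.76) and the core subunits GTF2H2 (4.42), GTF2H3 (5.54) and GTF2H1 (6.00) were among the low genes. The helicases ERCC3 (28.8) and ERCC2 (33.7) were higher. ERCC1 averaged 37.1 TPM beside 3.96 for its partner ERCC4, and CUL4A 37.1 beside 6.66 for CUL4B. Neighbours in this order often overlapped between libraries, as did XPA (3.95 to 5.83) and ERCC8 (3.93 to 6.11).

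**Figure D4:**
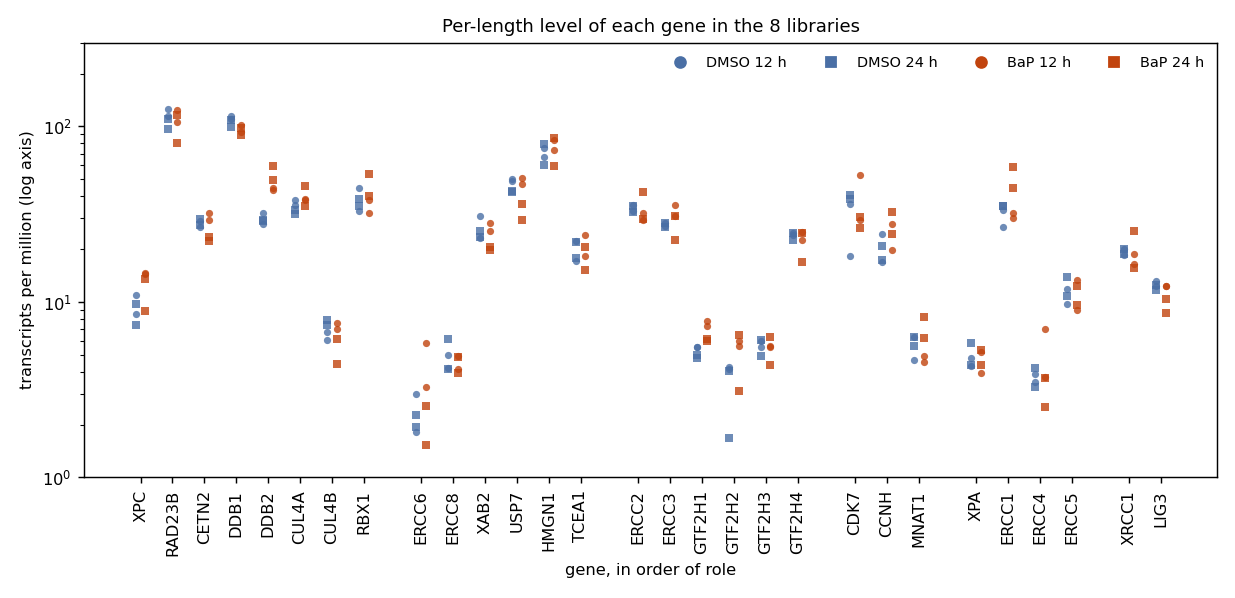
Level per transcript length (TPM, log axis) of each of the 29 genes in the 8 libraries, with DMSO in blue, BaP in red, 12 h as circles and 24 h as squares, in order of role. RAD23B and DDB1 are highest, with means of 109 and 102, and the BaP points stand clear of the DMSO points for DDB2.

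Transcript usage could be tested for 19 members, those with at least 2 transcripts holding 10% or more of the gene's counts, and none was called. On simulated data this test missed most switches of moderate size with 2 libraries per group, so the absence of a call does not show unchanged usage. Over all 6831 genes so tested, 0.307% were called at 12 h and 0.922% at 24 h. The smallest unadjusted p at 12 h was that of ERCC6 (0.0031, adjusted p = 0.31). Its transcript ENST00000374129 held 22.9% and 20.0% of the gene's counts with BaP and 4.92% and 2.96% with DMSO at 12 h, from a gene at about 10 CPM. With 24 h of exposure it held 26.1% and 21.4%, beside 9.62% and 26.8% in DMSO 24 h, so the groups overlapped there and the high share also occurred without BaP (unadjusted p = 0.83). At an unadjusted p under 0.05 there were also CDK7 and ERCC2 at 12 h, and GTF2H1 and USP7 at 24 h, again without a share over all genes. For GTF2H1, the retained-intron transcript held 39.0% (replicate 2) and 4.55% (replicate 1) of its counts with BaP at 24 h, beside 1.99% and 0% with DMSO. For USP7, USP7-201 held 88.3% (BaP 24 h, replicate 2) and 64.2% (replicate 1), beside 60.7% and 60.3% with DMSO. Without replicate 1 of BaP 24 h GTF2H1 and USP7 were called, with 7.14% of all genes, and without replicate 2 CDK7 was, with 9.12%.

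Genomic span was looked up because fold changes over all genes varied with it. Of the genes tested, 13525 had a span in GENCODE 29. Their median log2 fold change at 12 h was 0.072 for spans up to 30 kb, 0.010 from 30 to 100 kb and -0.17 over 100 kb. The 29 members spanned 3.81 to 235 kb. MNAT1 alone exceeded 100 kb, and it was at -0.27 at 12 h and 0.33 at 24 h. The 10 members up to 30 kb had a median of -0.030 and the 18 from 30 to 100 kb one of 0.10 at 12 h. Across the 29 genes, which share their libraries, span and fold change had a Spearman correlation of -0.0084 at 12 h and 0.26 at 24 h. The correlation over all genes was not computed. At 24 h the medians of all genes with a span were 0.079, -0.025 and -0.12 from the shortest to the longest bin. The members up to 30 kb had a median of -0.018 and those from 30 to 100 kb one of 0.045.

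**Figure D5:**
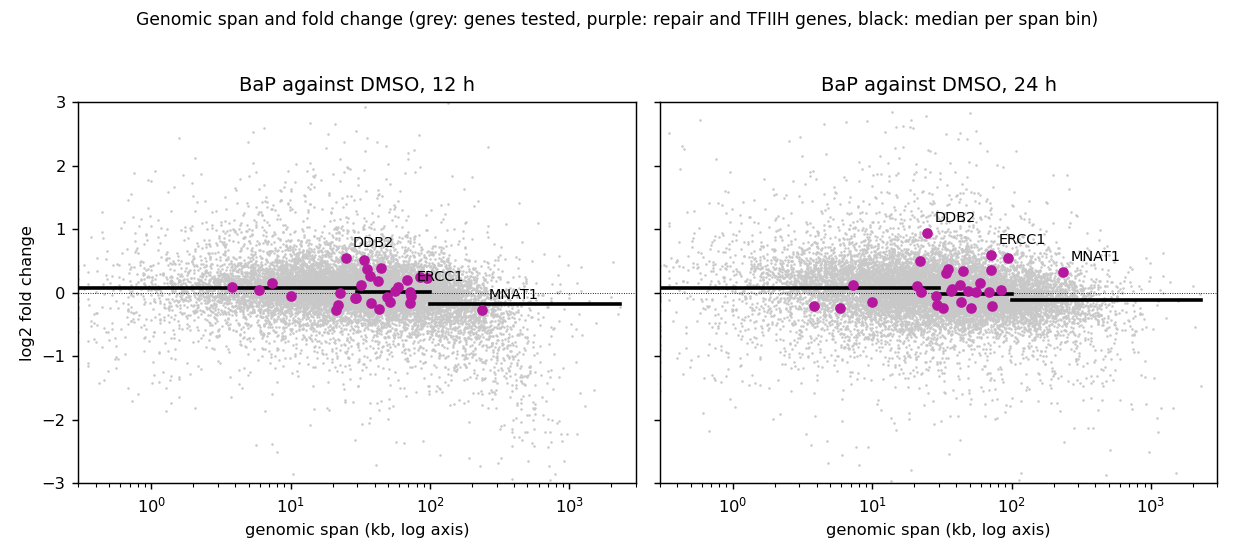
Genomic span (x axis, kb, log axis) against log2 fold change (y axis) with BaP at 12 h (left) and 24 h (right) for the 13525 genes tested that had a span (grey), the 29 repair and TFIIH genes (purple) and the median of all genes with a span in 3 span bins (black lines). At 12 h the black line drops from 0.072 to -0.17, and 28 of the 29 purple points lie at spans up to 100 kb (37 genes at 12 h and 29 at 24 h lie outside the axis limits of -3 and 3).

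Other genes of the pathway were read from lists. Of 19 genes of gap filling, none was called at 12 h and 1 rose at 24 h: POLD4, the small subunit of DNA polymerase delta, was at 25.1 and 35.1 CPM with BaP and 18.1 and 18.6 with DMSO (0.78, SE 0.19, adjusted p = 0.026). PCNA, the sliding clamp, was at 327 and 354.5 CPM with BaP and 249 and 286 with DMSO at 12 h (0.35, SE 0.13, adjusted p = 0.12). RFC4, a subunit of the clamp loader, was nearest to the threshold at 12 h, with 18.0 and 20.6 CPM beside 24.6 and 29.8 (-0.49, SE 0.16, adjusted p = 0.067), and POLD1 was at -0.32 (adjusted p = 0.12). The gap-filling genes had a median of 0.0016 at 12 h and -0.11 at 24 h. Of 13 further recognition and transcription-coupling genes tested, CHD1L, a chromatin remodeller, fell at 12 h (-0.41, SE 0.11, adjusted p = 0.032), and none was called at 24 h. None of the 9 COP9 signalosome genes, which act on the cullin ligases, was called, nor any of 8 further general transcription factor genes, with TBP nearest at 12 h (0.45, adjusted p = 0.054).

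Of the 12 RNA polymerase II subunit genes, POLR2A, the catalytic subunit, rose at 12 h, with 727.5 and 625 CPM beside 497 and 482 with DMSO (0.46, SE 0.14, adjusted p = 0.045). It was at -0.00034 at 24 h. In base excision repair, which removes small lesions, MBD4 rose at 12 h (0.49), POLB rose (0.76, adjusted p = 0.026) and UNG fell (-0.74, adjusted p = 0.0071) at 24 h, of 19 genes. None of the 8 mismatch repair genes was called with BaP, with MSH6 nearest at 12 h (-0.39, adjusted p = 0.067). Over time in DMSO, LIG1 (-0.57), POLE (-0.61), ISY1 (-0.62), UNG (-0.64), FEN1 (-0.66) and MSH6 (-0.62) fell from 12 h to 24 h, while no member was called.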

How the data were processed

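Bowtie 0.12.7 and RSEM 1.1.7 are named in the submitters' processing notes, with edgeR without a version. The annotation was Ensembl release 58, per the file names (genome build: not given in the sources used here). The deposited estimated counts per gene and transcript were used as the authors left them, not normalised. The deposited fractions, the authors' share of transcripts corrected for length, were multiplied by 1000000 to give TPM. Counts were rounded, filtered by filterByExpr (minimum count 10, total 15) and scaled by TMM in edgeR 4.0.16 (R 4.3.3). A quasi-likelihood model with robust dispersions and 1 mean per group was fitted to all 8 libraries. SE is the fold change over the square root of F. Transcript usage was tested with diffSpliceDGE. Alternatives included DESeq2 1.42.0 and leaving out each library. P-values cover only the spread between the 2 libraries within a group. That spread was estimated over the 4 groups together and drawn toward that of other genes.

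Named genes were those called, the 2 nearest to the threshold at each time (GTF2H1 and ERCC2, CCNH and RBX1), the extremes of role groups, and called or nearest genes of other lists; DDB1 and the ratios of partners were added after their values were seen. The members and lists were chosen with earlier results of these data known. Gene names came from a symbol table and GENCODE 29 by Ensembl ID (41393 of 49733 IDs), spans and exon overlaps from GENCODE 29, and promoter windows from RefSeq. The scripts were tested on simulated data; the usage test missed most simulated switches at the first setting tried and found most once they were made larger and less variable. One gene of the lists and what rests on it are not reported here.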

Additional observations from a re-analysis of the deposited data

How the results depend on the processing

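Members called at 12 h numbered 2, and 1 with DESeq2's Wald test, 0 with thinned libraries, 1 with transcripts regrouped by GENCODE 29 and 0 to 1 when a library was left out. At 24 h they numbered 2, and 1 with DESeq2, 1 with regrouped transcripts and 1 to 4 when a library was left out; for the difference between the times 0, and 0 to 1 when a library was left out. Members with changed usage at 24 h numbered 0 to 2 when a library was left out. Over all genes, 1216 were called at 12 h, 800 with DESeq2, 652 thinned, and 424 to 883 without a library. At 24 h 782 were called, 1238 without a filter, 379 from the libraries of the comparison alone, 445 thinned, and 169 (without replicate 1 of DMSO 24 h) to 1956 (without replicate 1 of BaP 24 h). For the difference these counts were 80, 240 without a filter, 49 thinned and 28 to 348 without a library. For DMSO over time they were 483, 805 without a filter, 853 from the libraries of the comparison alone, 275 thinned and 87 to 232 without a library. Thinning and leaving out libraries lower the counts or samples by construction; the cause of the other shifts was not tested.

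Of 154 fold changes of the 7 members given in full under an alternative, 128 kept direction and call, 16 lost a call, 2 gained one and 8 changed sign. ERCC1 at 12 h, near 0, changed sign without a filter (-0.0044), from the libraries of the comparison alone (-0.0038), when regrouped (-0.12) and when libraries were left out (-0.13 to 0.15). ERCC2 at 24 h was at -0.056 thinned. RBX1 ran from -0.42 to 0.035 at 12 h and from -0.10 to 0.74 at 24 h when a library was left out. The regrouping and the sum of the GTF2H2 copies were chosen after seeing the data.

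Replicate numbers are not stated to mark shared experiments. Deviations of same-numbered libraries correlated at 0.42 between the 12 h groups and 0.064 between the 24 h groups, over 7299 genes. Between BaP 12 h and BaP 24 h the correlation was -0.24. With a replicate block the same members were called (2 at 12 h, 2 at 24 h, 0 for the difference and for DMSO over time, 0 for usage), with 1229, 738, 80 and 479 of all genes. The block held the same shift between replicates in all groups. It therefore cannot represent a pairing present at 12 h alone. For usage the block lowered the genes called from 21 to 2 of 6831 at 12 h and from 63 to 33 at 24 h.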
